A study of Mus musculus with 16 samples.

Results

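The Bcl2 family decides whether the outer mitochondrial membrane of a stressed cell is opened, and 10 of its genes were followed across 16 RNA sequencing libraries of mouse pluripotent cells. The members were taken by gene symbol from the deposited count table: the pro-survival genes Bcl2, Bcl2l1 (BCL-XL) and Mcl1, the BH3-only genes Bcl2l11 (BIM), Bbc3 (PUMA), Pmaip1 (NOXA), Bid and Bad, and the effectors Bax and Bak1. All 10 were found among the 34042 genes of the table, and all 10 were among the 18555 genes with enough counts to be tested. Pmaip1 entered that set through the ES libraries, since its counts passed the cut-off in 4 of 4 ES, 1 of 3 AFX, 0 of 6 FS and 0 of 3 AF libraries. Bcl2 passed in 2 of 4 ES libraries and in all libraries of the other groups.

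The study compared mouse stem cells of different pluripotent states, each grown in its own medium. Naive embryonic stem cells (ES) were the line E14IV-C in 2iL at passages 12, 13, 15 and 20 (4 libraries). Formative stem cells (FS), which were captured as a state between naive and primed pluripotency, were grown in A3XR. They gave 6 libraries, from the line 5ar1 at passages 10, 12 and 14 and the line 5ar3 at passages 4, 5 and 12. Epiblast stem cells (EpiSCs), the primed state, were the line AFX6 in AFX at passages 5, 8 and 12 (AFX group, 3 libraries) and the line AF32 in AF at passages 13, 14 and 15 (AF group, 3 libraries). No genotype, strain or treatment other than the medium is given by the labels. Outside FS each medium had 1 line, so line and medium cannot be told apart, and the replicates were passages of a line.

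BH3-only proteins are the sensors of the family. They bind and block the pro-survival proteins, and some of them also activate BAX and BAK directly. Active BAX and BAK form pores that release cytochrome c, which starts the caspase cascade through APAF1. Primed pluripotent cells have been described as lying close to the apoptotic threshold, with BIM held in check by microRNAs, and MCL1 is needed by the early embryo around implantation.

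The libraries held 22069338 to 33290250 counts, of which 7627 to 16630 fell on the 10 members. The mitochondrial rRNA gene mt-Rnr2 took 38.1% of the counts in ES passage 12 and between 9.96% and 25.0% in the other libraries, and without that ES library all 10 members were still called between FS and ES. Summed naive markers (7 of 7 measured) were at 2257 to 3482 CPM in ES and at 4.43 to 12.8 CPM elsewhere. The 4 formative and primed epiblast markers were at 39.6 to 103 CPM in ES and at 834 to 2246 CPM elsewhere. Summed fibroblast markers (7 of 7 measured) were at 5.25 to 5.47 CPM in ES, with Dcn at 0, and at 19.0 to 89.5 CPM elsewhere. The 7 streak and endoderm markers were at 311 to 718 CPM in AF, 2.41 to 144 CPM in AFX, 0.765 to 8.95 CPM in FS and 4.97 to 14.5 CPM in ES. The 3 neuroectoderm markers were at 2.23 to 33.8 CPM in FS, 0.373 to 2.29 in AFX, 4.11 to 12.1 in AF and 0.813 to 2.59 in ES, with Neurog2 at 0. These marker sums moved with the groups, and their part in the results was not tested.

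Levels are given as CPM, counts relative to a library total that was scaled by the trimmed mean of M-values. Genes are compared with each other as CPM per kilobase of annotated exon. The exceptions are the balances of the members that are named below as taken on CPM, which leave out exon length. Differences are log2 fold changes with their standard error (SE), and p-values come from edgeR's quasi-likelihood test with Benjamini-Hochberg adjustment over all tested genes. A gene was called at an adjusted p under 0.05. In these bulk libraries, fewer cells that express a gene and less RNA per cell cannot be told apart.

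The sequences before the first RefSeq transcription start are shown for the members with large opposite changes between ES and the other groups, Bcl2 and Bcl2l11 on one side and Bid on the other. Each runs 5′ to 3′ on the gene's strand over the 250 bases up to the start (RefSeq, GRCm38.p6), and capitals mark GC boxes, that is GGGCGG or its complement.
Bcl2, chr1:106714291-106714540, minus strand: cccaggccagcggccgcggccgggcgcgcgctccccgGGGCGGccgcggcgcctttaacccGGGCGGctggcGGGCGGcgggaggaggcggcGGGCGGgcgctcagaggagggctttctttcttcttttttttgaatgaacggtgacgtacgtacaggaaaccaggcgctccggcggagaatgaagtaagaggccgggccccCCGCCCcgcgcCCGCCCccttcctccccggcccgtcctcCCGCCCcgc
Bcl2l11, chr2:128125788-128126037, plus strand: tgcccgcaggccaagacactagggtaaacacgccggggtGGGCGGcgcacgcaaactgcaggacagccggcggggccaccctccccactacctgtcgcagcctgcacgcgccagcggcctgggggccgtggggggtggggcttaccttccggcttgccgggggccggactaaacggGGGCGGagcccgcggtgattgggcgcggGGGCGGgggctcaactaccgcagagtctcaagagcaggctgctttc
Bid, chr6:120916825-120917074, minus strand: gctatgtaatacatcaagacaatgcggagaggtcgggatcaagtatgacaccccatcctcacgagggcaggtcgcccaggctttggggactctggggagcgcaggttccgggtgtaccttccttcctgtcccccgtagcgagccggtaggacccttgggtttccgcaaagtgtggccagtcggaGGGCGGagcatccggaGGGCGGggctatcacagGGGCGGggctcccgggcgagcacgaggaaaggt
The Bcl2 window had 74.8% G and C, 36 CpG dinucleotides and 7 GC boxes. The Bcl2l11 window had 72.0%, 24 CpGs and 3 GC boxes, and the Bid window 63.6%, 18 CpGs and 3 GC boxes. Over 32841 windows of the same length before RefSeq starts the median was 52.4% G and C with 6 CpGs, and 32.7% of the windows held a GC box on either strand. The forkhead motif GTAAACA, searched on both strands, was found once in the Bcl2l11 window, and in 3.17% of all windows. It was not found in the windows of Bcl2 and Bid. The E-box CACGTG, found in 6.02% of all windows, was in none of the 3. A match is a string of letters and no evidence of binding. All 3 windows were thus richer in CpG than the median window, whichever way the gene differed.

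Between FS and ES all 10 members were called, 3 higher in FS and 7 lower, where 62.8% of all tested genes were called, 32.9% higher and 29.9% lower. The 3 that rose were Bcl2, Bcl2l11 and Bbc3. Pmaip1, among those called lower here and in AF, was tested only because its ES counts passed the filter. Bcl2, called higher here, in AFX and in AF, was tested only because its counts outside ES passed it. The median log2 fold change of the members was -0.54, against 0.04 over all tested genes. The libraries of FS and ES did not overlap for 9 of the 10, which held for 46.3% of all tested genes. AFX differed from ES in 8 members, 3 higher and 5 lower, where 54.7% of all genes were called, 28.5% higher and 26.2% lower. AF differed in 7 members, 2 higher and 5 lower, where 56.7% were called, 29.7% higher and 27.0% lower. Libraries did not overlap for 8 members in each of these comparisons, as for 58.7% of all genes in AFX and 62.3% in AF. More genes than not were called in each of these comparisons, and the members' counts are to be read against that. The ES libraries are shared by these 3 comparisons, so their likeness is no independent evidence. Bcl2 and Bcl2l11 were called higher, and Mcl1, Bid, Bad and Bax lower, against ES in FS, AFX and AF alike. With libraries scaled by total counts only, the share of calls that were higher than ES went from 52.4% to 70.5% in FS, from 52.0% to 64.7% in AFX and from 52.4% to 66.3% in AF, and the median log2 fold change over all genes from 0.04 to 0.40, 0.01 to 0.25 and 0.01 to 0.29.

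**Figure D1:**
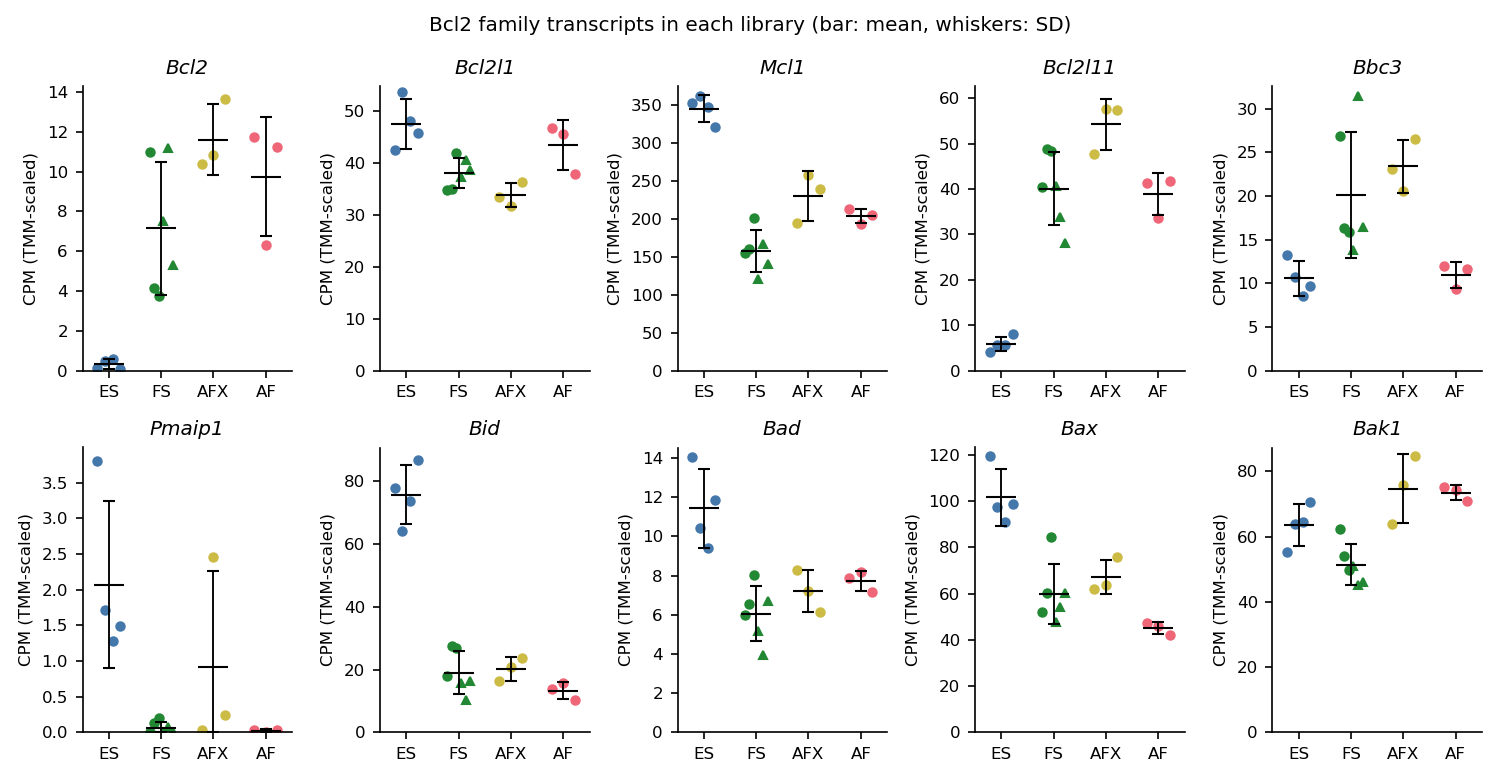
Level of each member in each library (vertical axis, CPM after scaling by the trimmed mean of M-values, starting at 0) for ES, FS, AFX and AF; circles and triangles in FS are the lines 5ar1 and 5ar3, bars are group means and whiskers SD (n = 4, 6, 3 and 3). Bcl2 and Bcl2l11 are near the bottom in all 4 ES libraries and Bid, Mcl1 and Bax are highest there, while 1 AFX library stands apart for Pmaip1.

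Among the pro-survival genes, Bcl2, the founding member of the family (chr1:106538178-106714274, GRCm38, minus strand), was close to absent in ES. The ES libraries held 2, 11, 13 and 2 counts of it in the order of passage, or 0.138, 0.497, 0.592 and 0.0850 CPM. In FS it lay between 3.76 and 11.2 CPM with a median of 6.41, in AFX at 10.8, 13.6 and 10.4 CPM (passages 5, 8 and 12), and in AF at 11.7, 6.31 and 11.2 CPM (passages 13, 14 and 15). Every library outside ES was above every ES library. The mean rose from 0.328 ± 0.254 CPM in ES (SD, n = 4) to 7.15 ± 3.32 in FS (SD, n = 6), a ratio of 21.8 (log2 fold change 4.39, SE 0.49, edgeR adjusted p = 5.94e-07). The log2 fold change against ES was 5.08 in AFX (SE 0.52, edgeR adjusted p = 3.45e-07) and 4.83 in AF (SE 0.52, edgeR adjusted p = 5.73e-07). With so few ES counts the exact fold is loosely fixed, and it ran from 3.92 to 4.82 for FS over the alternatives run, with the call kept in all 19. Bcl2 was tested only because its counts outside ES passed the filter, so these p-values are no independent support for its lower level in ES. FS, AFX and AF overlapped, and none of their differences in Bcl2 was called.

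Mcl1, a short-lived pro-survival protein that binds BIM and NOXA (chr3:95658788-95663176, GRCm38, plus strand), was the most abundant member in every condition. ES libraries were at 353, 362, 347 and 321 CPM. FS libraries lay between 121 and 202 CPM with a median of 158, AFX at 258, 239 and 194 CPM, and AF at 213, 194 and 206 CPM. ES was thus above all other libraries, and FS and AFX overlapped. The mean fell from 346 ± 17.6 CPM in ES (SD, n = 4) to 158 ± 27.1 in FS (SD, n = 6), or by 1.13 on the log2 scale (SE 0.12, edgeR adjusted p = 4.82e-07), and AF stood at -0.76 (SE 0.15, edgeR adjusted p = 4.01e-04). Both calls were kept in every alternative. In AFX it was -0.58 (SE 0.15, edgeR adjusted p = 0.0034), a call that ended with libraries scaled by total counts only (-0.34, edgeR adjusted p = 0.141).

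Bcl2l1, which encodes BCL-XL (chr2:152780668-152831728, GRCm38, minus strand), varied least of the 3. ES libraries were at 42.4, 53.7, 48.1 and 45.7 CPM, FS between 34.8 and 42.0 with a median of 37.9, AFX at 31.7, 36.3 and 33.4, and AF at 46.8, 45.6 and 37.9 CPM. ES was above FS and AFX without overlap and overlapped AF. The log2 fold change was -0.32 in FS (SE 0.11, edgeR adjusted p = 0.0141), -0.49 in AFX (SE 0.13, edgeR adjusted p = 0.00363) and -0.13 in AF (SE 0.13, edgeR adjusted p = 0.403). The FS call ended without ES passage 13 (-0.26, edgeR adjusted p = 0.0608). It ended as well with 5ar3 as the only FS line (-0.29, edgeR adjusted p = 0.0604) and with no low-count filter (-0.3, edgeR adjusted p = 0.065). With total counts only, which moved the median of all genes upward as given above, Bcl2l1 stood at 0.02 in FS (edgeR adjusted p = 0.903) and -0.27 in AFX (edgeR adjusted p = 0.243).

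Among the BH3-only genes, Bcl2l11 rose in the same groups as Bcl2. It encodes BIM, which binds all main pro-survival proteins (chr2:128126038-128162547, GRCm38, plus strand). ES libraries were at 4.22, 5.74, 5.70 and 8.08 CPM. FS libraries lay between 28.2 and 48.8 CPM with a median of 40.5, AFX at 57.6, 57.3 and 47.7 CPM, and AF at 41.4, 33.7 and 41.8 CPM, so ES stood apart from all others. The mean rose from 5.93 ± 1.60 CPM in ES (SD, n = 4) to 40.0 ± 8.04 in FS (SD, n = 6), a ratio of 6.75. The log2 fold changes against ES were 2.75 in FS (SE 0.20, edgeR adjusted p = 2.33e-09), 3.18 in AFX (SE 0.22, edgeR adjusted p = 2.16e-09) and 2.71 in AF (SE 0.21, edgeR adjusted p = 1.33e-08). Both FS lines showed it, at 2.94 in 5ar1 alone and 2.52 in 5ar3 alone, and every alternative kept the 3 calls. Gene counts do not separate the BIM isoforms, nor the long and short forms of Bcl2l1 and Mcl1.

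Bid moved the other way. It encodes the protein that caspase-8 cleaves to link death receptors to mitochondria (chr6:120891930-120916853, GRCm38, minus strand). ES libraries were at 77.7, 64.3, 73.6 and 86.9 CPM, FS between 10.5 and 27.4 with a median of 17.1, AFX at 20.7, 23.7 and 16.3, and AF at 13.8, 15.6 and 10.5 CPM. Every ES library was above every other library. The mean fell from 75.6 ± 9.39 CPM in ES (SD, n = 4) to 19.1 ± 6.70 in FS (SD, n = 6). The log2 fold changes were -1.99 in FS (SE 0.22, edgeR adjusted p = 5.12e-07), -1.90 in AFX (SE 0.28, edgeR adjusted p = 1.84e-05) and -2.51 in AF (SE 0.29, edgeR adjusted p = 1.12e-06), and every alternative kept the 3 calls. The gene Bcl2l13 overlaps 17.7% of the Bid exon bases on the opposite strand. Bcl2l13 was higher in FS, at 70.5 ± 7.27 CPM (SD, n = 6) against 42.3 ± 2.31 in ES (SD, n = 4), which is the opposite direction.

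Pmaip1, which encodes NOXA, the BH3-only protein that pairs with MCL1, was detected mainly in ES. ES libraries held 55, 38, 28 and 35 counts, or 3.801, 1.72, 1.28 and 1.49 CPM. FS libraries held 0, 4 and 6 counts in 5ar1 and 2, 0 and 0 in 5ar3 in the order of passage, and AF libraries held 1, 0 and 1. AFX passage 5 held 69 counts (2.46 CPM) and passages 8 and 12 held 7 and 1, so 1 AFX library lay within the ES range and the others below it. On summed counts, ES was 25.7-fold above FS (156 against 12 counts, exact 95% interval 14.3 to 50.9) and 85.5-fold above AF (156 against 2 counts, 23.3 to 712), intervals that cover counting error only. The fitted log2 fold change was -4.74 in FS (SE 0.90, edgeR adjusted p = 1.90e-04) and -6.25 in AF (SE 1.36, edgeR adjusted p = 8.47e-04). In AFX it was -1.17 (SE 0.89, edgeR adjusted p = 0.282), and without AFX passage 5 it was -3.87 (edgeR adjusted p = 0.00443). Pmaip1 was tested only because its ES counts passed the filter, so these p-values are no independent support for its higher level in ES.

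Bbc3, which encodes PUMA, the main p53-induced BH3-only protein (chr7:16308393-16318205, GRCm38, plus strand), separated AF from FS and AFX. ES libraries were at 13.3, 10.8, 8.52 and 9.74 CPM, FS between 13.9 and 31.4 with a median of 16.4, AFX at 20.6, 26.6 and 23.0, and AF at 11.96, 9.32 and 11.6 CPM. FS and AFX lay above ES and AF without overlap, and ES and AF overlapped. The log2 fold change against ES was 0.93 in FS (SE 0.23, edgeR adjusted p = 0.00169) and 1.15 in AFX (SE 0.26, edgeR adjusted p = 0.00114), kept in every alternative. In AF it was 0.06 (SE 0.26, 95% interval -0.49 to 0.61, edgeR adjusted p = 0.871).

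Bad, a BH3-only protein held inactive by phosphorylation through growth factor signals (chr19:6941861-6951899, GRCm38, plus strand), was lower outside ES. ES libraries were at 14.03, 10.4, 9.39 and 11.9 CPM, FS between 3.94 and 8.02 with a median of 6.27, AFX at 7.21, 6.13 and 8.26, and AF at 7.88, 8.17 and 7.18 CPM, with no overlap with ES. The log2 fold change was -0.91 in FS (SE 0.19, edgeR adjusted p = 4.24e-04), kept in every alternative. It was -0.66 in AFX (SE 0.23, edgeR adjusted p = 0.0203), a call that ended without AFX passage 5 (-0.66, edgeR adjusted p = 0.0569), AFX passage 8 (-0.56, edgeR adjusted p = 0.0883) or ES passage 12 (-0.55, edgeR adjusted p = 0.0507). In AF it was -0.56 (SE 0.23, edgeR adjusted p = 0.044), and it ended without any 1 of the 3 AF libraries or of ES passages 12 and 20 (edgeR adjusted p from 0.0737 to 0.13). Both EpiSC calls also ended with total counts only (AFX -0.39, AF -0.26), with no low-count filter (AFX -0.62, AF -0.52) and with passage as a covariate (AFX -0.48, AF -0.53). Of the Bad exon bases, 20.5% overlap Gpr137 on the opposite strand. Gpr137 had 8.48 ± 1.15 CPM in ES (SD, n = 4) and 7.88 ± 0.626 in FS (SD, n = 6), and its change was not called (edgeR adjusted p = 0.525).

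**Figure D2:**
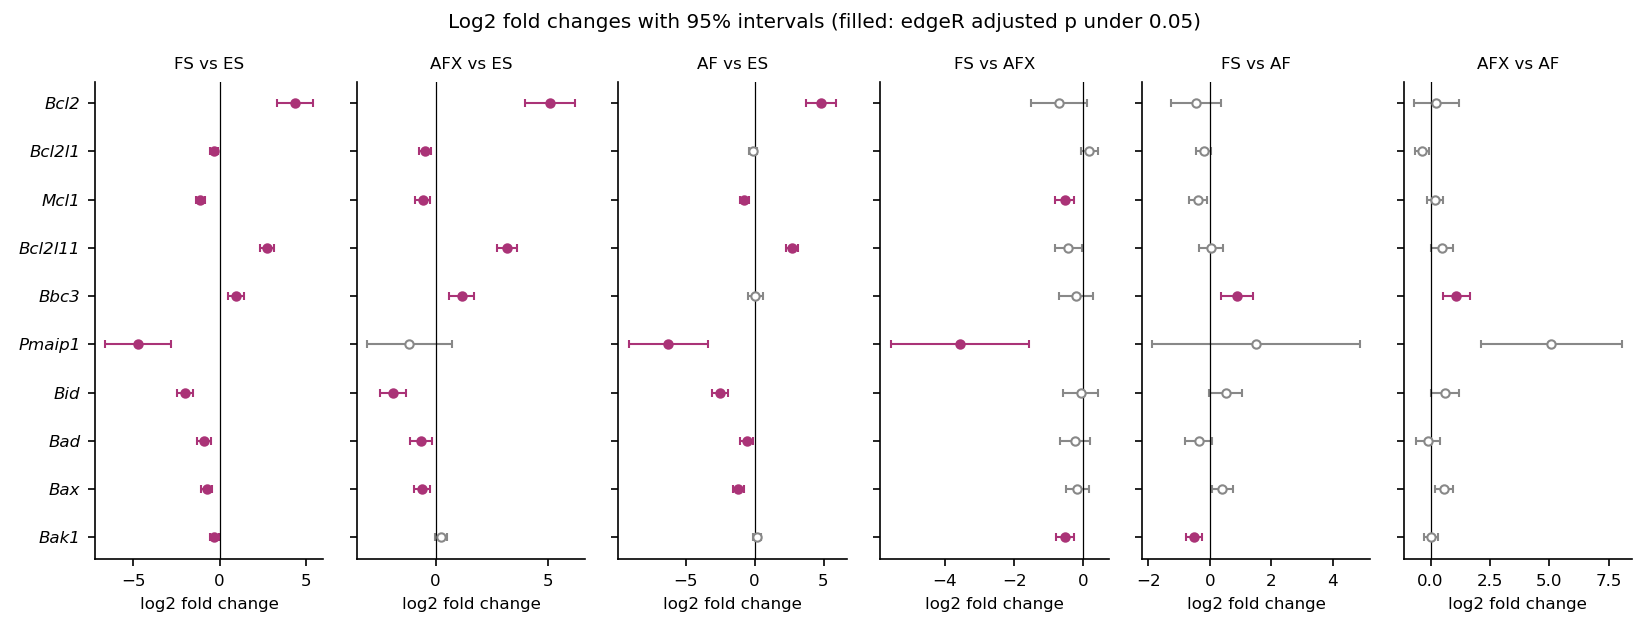
Log2 fold change of each member in 6 comparisons (horizontal axis; each panel has its own range), with the 95% interval as whiskers and filled points for an edgeR adjusted p under 0.05. Against ES (first 3 panels) Bcl2 and Bcl2l11 lie right of 0 and Bid lies left of it in each panel, and among FS, AFX and AF (last 3 panels) few members are filled.

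Of the pore-forming effectors, Bax (chr7:45461697-45466898, GRCm38, minus strand) was lower outside ES, and Bak1 (chr17:27019810-27029009, GRCm38, minus strand) was not lower in EpiSCs. Bax was at 119, 97.6, 90.9 and 99.0 CPM in ES, between 47.8 and 84.6 in FS with a median of 57.2, at 64.0, 75.7 and 62.0 in AFX, and at 47.5, 45.9 and 42.2 CPM in AF. ES was above all others, and AF was below all FS and AFX libraries. Its log2 fold change was -0.76 in FS (SE 0.14, edgeR adjusted p = 1.49e-04) and -1.17 in AF (SE 0.17, edgeR adjusted p = 2.11e-05), kept in every alternative. In AFX it was -0.60 (SE 0.17, edgeR adjusted p = 0.00681), which ended with total counts only (-0.35, edgeR adjusted p = 0.108). Of the Bax exon bases, 12.2% overlap Gm45808 on the same strand, so some reads of that part may have been given to either gene or to none.

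Bak1 was at 55.2, 64.0, 64.4 and 70.7 CPM in ES and between 45.1 and 62.3 in FS with a median of 50.3. It was at 75.7, 84.8 and 63.8 CPM in AFX and at 75.2, 74.3 and 70.9 in AF. FS overlapped ES, and lay below AFX and AF without overlap. The log2 fold change against ES was -0.31 in FS (SE 0.12, edgeR adjusted p = 0.0281). That call ended without any 1 of the libraries 5ar3 passage 4, 5ar3 passage 5, ES passage 13, ES passage 15 or ES passage 20 (edgeR adjusted p from 0.0522 to 0.0889), and with total counts only the value was 0.04 (edgeR adjusted p = 0.852). It ended as well with no low-count filter (-0.29, edgeR adjusted p = 0.0936), passage as a covariate (-0.22, edgeR adjusted p = 0.189), only FS and ES in the fit (-0.31, edgeR adjusted p = 0.0597) and 5ar1 as the only FS line (-0.20, edgeR adjusted p = 0.207). In AFX it was 0.23 (SE 0.14, edgeR adjusted p = 0.158) and in AF 0.21 (SE 0.14, edgeR adjusted p = 0.204). Of the Bak1 exon bases, 18.2% overlap Ggnbp1 on the opposite strand, which was at 2.73 CPM in ES and 4.13 in FS on average. Per kilobase, Bax exceeded Bak1 by 1.29 ± 0.30 on the log2 scale in ES (SD, n = 4), 0.82 ± 0.36 in FS (SD, n = 6) and 0.46 ± 0.10 in AFX (SD, n = 3). In AF the difference was -0.09 ± 0.05 (SD, n = 3), so Bak1 was slightly above Bax in each AF library.

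Compared per kilobase of exon, Mcl1 and Bax led the order of levels in ES and FS. In ES, Mcl1 was at 101 CPM per kilobase, Bax at 64.5, Bak1 at 26.4, Bid at 21.3 and Bcl2l1 at 10.4. Bbc3 followed at 4.98, Bad at 4.47, Pmaip1 at 0.758, Bcl2l11 at 0.739 and Bcl2 at 0.0358 CPM per kilobase. In FS the order was Mcl1 at 46.2, Bax at 38.0, Bak1 at 21.4, Bbc3 at 9.48 and Bcl2l1 at 8.29 CPM per kilobase. Bid at 5.38, Bcl2l11 at 4.99, Bad at 2.37, Bcl2 at 0.781 and Pmaip1 at 0.0247 came after them. Bid thus fell from the fourth to the sixth place and Bbc3 rose from the sixth to the fourth. In ES, Bbc3 and Bad lay closer than their spread over libraries, as did Pmaip1 and Bcl2l11, and in FS so did Mcl1 and Bax, Bbc3 and Bcl2l1, and Bid and Bcl2l11. Of these pairs, Mcl1 was still above Bax in each FS library, and the order of the others changed between libraries.

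In AFX the order was Mcl1 at 67.4 CPM per kilobase, Bax at 42.7, Bak1 at 31.1, Bbc3 at 11.01, Bcl2l1 at 7.37, Bcl2l11 at 6.75, Bid at 5.70, Bad at 2.82, Bcl2 at 1.27 and Pmaip1 at 0.334. In AF it was Mcl1 at 59.8, Bak1 at 30.5, Bax at 28.7, Bcl2l1 at 9.47, Bbc3 at 5.17, Bcl2l11 at 4.85, Bid at 3.75, Bad at 3.03, Bcl2 at 1.07 and Pmaip1 at 0.00824 CPM per kilobase. Bcl2l1 and Bcl2l11 in AFX, Bcl2l11 and Bid in AFX, Bbc3 and Bcl2l11 in AF, and Bid and Bad in AF were neighbours closer than their spread. Within single libraries the order of Bcl2l1 and Bcl2l11 in AFX changed, and the order of the other pairs held in each library of the group.

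The make-up of the BH3-only group changed more than its sum. The 5 BH3-only genes summed to 32.3 ± 3.66 CPM per kilobase in ES (SD, n = 4), 22.2 ± 3.12 in FS (SD, n = 6), 26.6 ± 2.11 in AFX (SD, n = 3) and 16.8 ± 0.852 in AF (SD, n = 3). Bid made up 66.1% ± 4.29 of that sum in ES and 24.2% ± 7.25 in FS, 21.3% ± 2.37 in AFX and 22.3% ± 4.64 in AF. The share of Bcl2l11 was 2.31% ± 0.587 in ES and 22.5% ± 4.08 in FS, 25.4% ± 1.59 in AFX and 28.9% ± 2.86 in AF. Bbc3 had 15.5% ± 2.55 in ES, 42.4% ± 12.4 in FS, 41.4% ± 4.11 in AFX and 30.7% ± 3.20 in AF. Bid led the BH3-only genes in ES, and Bbc3 had the highest mean share in FS, in AFX and, narrowly ahead of Bcl2l11, in AF. In FS that mean leaned on 5ar1 passage 10 and 5ar3 passage 4, where Bbc3 was at 12.6 and 14.8 CPM per kilobase. In 5ar1 passages 12 and 14 Bid, at 7.72 and 7.55 CPM per kilobase, was level with Bbc3 at 7.70 and 7.46. Shares of a sum depend on each other, and no test was run on them.

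**Figure D3:**
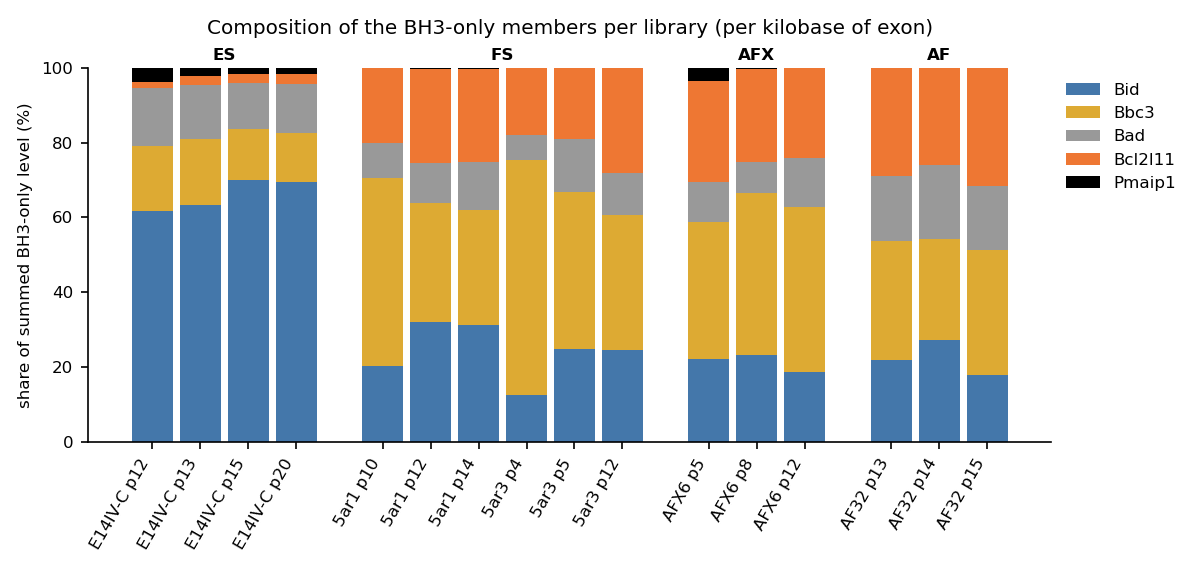
Share of each BH3-only member in the summed BH3-only level of a library (vertical axis, percent of CPM per kilobase of exon), with 1 bar for each of the 16 libraries, labelled by line and passage. Bid takes 61.6% to 70.1% in the 4 ES libraries and 12.5% to 32.0% in the 12 others, and Bcl2l11 takes 1.48% to 2.85% in ES and 17.9% to 31.6% elsewhere.

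The balance of the 10 members was described as the log2 ratio of the summed pro-survival to the summed pro-apoptotic level per kilobase. It was -0.25, 0.01, -0.02 and -0.30 in the ES libraries, -0.65 to -0.38 in FS, -0.24, -0.50 and -0.47 in AFX, and -0.10, -0.18 and -0.06 in AF. The means were -0.14 ± 0.15 in ES (SD, n = 4), -0.57 ± 0.10 in FS (SD, n = 6), -0.40 ± 0.14 in AFX (SD, n = 3) and -0.11 ± 0.06 in AF (SD, n = 3), that is ratios of 0.910, 0.677, 0.760 and 0.926. FS lay below ES and AF in all libraries, AFX overlapped FS and ES, and AF lay within the ES range. No test was run, since the members were chosen with earlier results known.

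That balance was carried by few genes. Mcl1 gave 90.7% ± 0.760 of the pro-survival sum in ES, 83.4% ± 2.27 in FS, 88.5% ± 1.63 in AFX and 85.02% ± 1.19 in AF, and Bcl2 gave at most 2.21% in any library. The pro-survival sum was 112 ± 5.68 CPM per kilobase in ES (SD, n = 4) and 55.3 ± 8.21 in FS (SD, n = 6), while the pro-apoptotic sum was 123 ± 9.32 in ES and 81.6 ± 10.1 in FS. Both sums were thus lower in FS, the pro-survival sum by more. Left without Mcl1, the balance was -3.57 in ES and -3.16 in FS, so FS was then higher. A second balance was the mean log2 CPM of the 3 pro-survival genes minus that of the 7 others. It weights each gene alike and leaves out exon length, so only its differences between groups can be read. It was -0.04 ± 0.53 in ES (SD, n = 4), 1.53 ± 0.39 in FS (SD, n = 6), 1.40 ± 0.31 in AFX and 2.06 ± 0.11 in AF (SD, n = 3 each), with all other libraries above ES. The order of ES and FS was therefore opposite in these measures. That order rested on Bcl2, with 2 to 13 counts per ES library, and Pmaip1, with 0 to 6 per FS library. Without this pair (a setting added once the data had been seen), the second balance was 2.28 ± 0.19 in ES (SD, n = 4), 1.62 ± 0.18 in FS (SD, n = 6), 1.499 ± 0.04 in AFX and 2.04 ± 0.02 in AF (SD, n = 3 each), with every other library below ES.

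**Figure D4:**
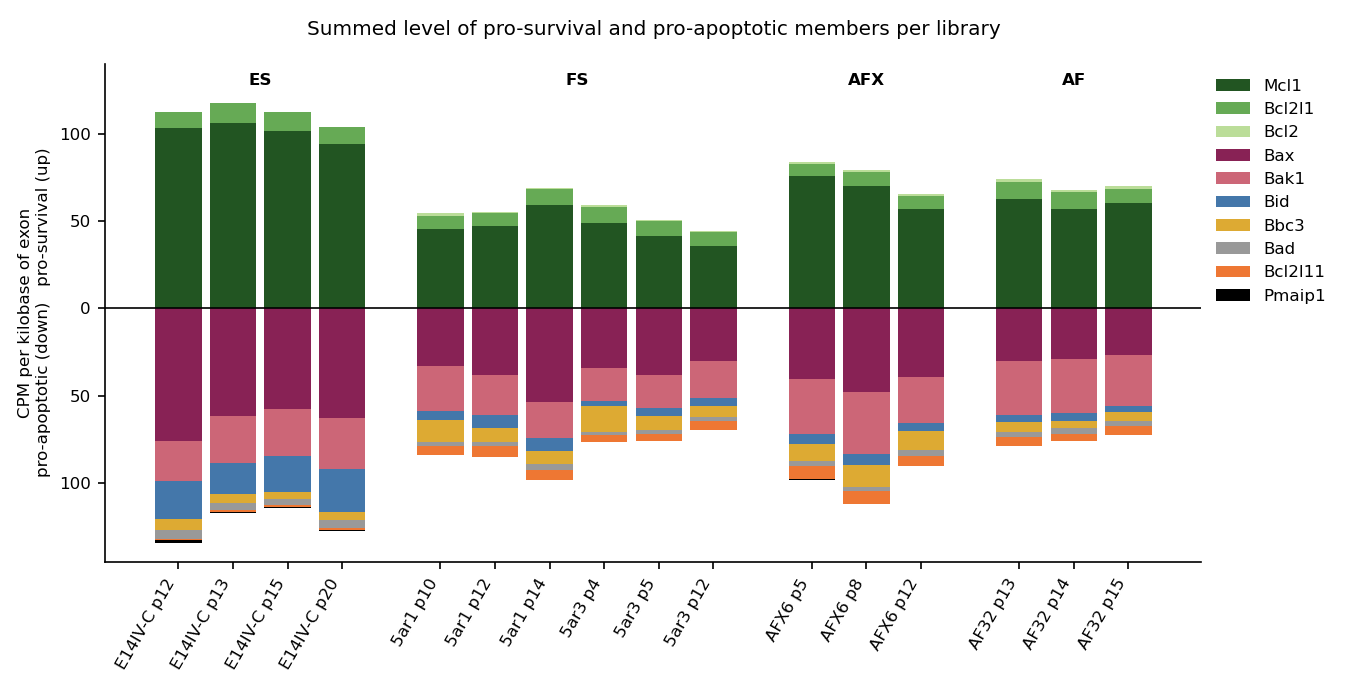
Summed level of the pro-survival members (upward) and pro-apoptotic members (downward) in each of the 16 libraries, in CPM per kilobase of exon, with 1 colour for each gene. Mcl1 fills most of the upper bars and Bax and Bak1 most of the lower bars, and the bars reach farthest both ways in ES.

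FS was then compared with each EpiSC group. Against AFX, 3 of the 10 members were called, all lower in FS, where 5.00% of all tested genes were called and 2.10% were called lower. They were Mcl1 (-0.54, SE 0.14, edgeR adjusted p = 0.027), Bak1 (-0.54, SE 0.12, edgeR adjusted p = 0.0173) and Pmaip1 (-3.57, SE 0.95, edgeR adjusted p = 0.0374). Only Bak1 had libraries that did not overlap, which held for 9.89% of all tested genes. These calls rested on 2 AFX libraries. Without AFX passage 5, Mcl1 was at -0.46 (edgeR adjusted p = 0.168), Bak1 at -0.53 (edgeR adjusted p = 0.0785) and Pmaip1 at -0.87 (edgeR adjusted p = 0.823). Without AFX passage 8, Mcl1 was at -0.53 (edgeR adjusted p = 0.11) and Bak1 at -0.45 (edgeR adjusted p = 0.141). The Pmaip1 call also ended without any 1 of the FS libraries other than 5ar1 passage 14 (edgeR adjusted p from 0.0519 to 0.0715). With 5ar1 as the only FS line, Mcl1 stood at -0.42 (edgeR adjusted p = 0.146), Bak1 at -0.43 (edgeR adjusted p = 0.0998) and Pmaip1 at -2.96 (edgeR adjusted p = 0.158). With total counts only, which moved the share of higher calls from 57.9% to 72.7%, Mcl1 (-0.42) and Bak1 (-0.40) were not called.

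Against AF, 2 members were called, 1 higher and 1 lower, where 16.6% of all tested genes were called, 7.84% higher and 8.81% lower. Of the calls over all genes, 16.8% were on chromosome 11, which holds 1396 of the 18555 tested genes and none of the members. Bbc3 was higher in FS (0.88, SE 0.25, edgeR adjusted p = 0.0217) and Bak1 lower (-0.52, SE 0.12, edgeR adjusted p = 0.00842). Both had libraries that did not overlap, as did Bax at 0.41 (SE 0.16, edgeR adjusted p = 0.0915), and 20.4% of all tested genes had such libraries. Bak1 kept its call with each library left out in turn, but not with total counts only (-0.42, edgeR adjusted p = 0.163) or with 5ar1 as the only FS line (-0.41, edgeR adjusted p = 0.0542). Bbc3 lost it without AF passage 13 (0.94, edgeR adjusted p = 0.0606), passage 14 (0.77, edgeR adjusted p = 0.111) or passage 15 (0.92, edgeR adjusted p = 0.0624), and with passage number as a covariate (0.63, edgeR adjusted p = 0.111). Mcl1 was at -0.37 (SE 0.14, edgeR adjusted p = 0.0735) and was called without 5ar1 passage 14 (-0.45, edgeR adjusted p = 0.0184). Bid was at 0.52 (SE 0.25, edgeR adjusted p = 0.173) and was called without 5ar3 passage 4 (0.65, edgeR adjusted p = 0.0463).

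Between the EpiSC groups 1 member was called, where 4.26% of all tested genes were called and 1.43% were called higher. Of the calls over all genes, 35.5% were on chromosome 11, which holds none of the members, and the part of that chromosome was not tested. Bbc3 was higher in AFX, by 1.09 (SE 0.28, edgeR adjusted p = 0.032). The libraries did not overlap for 5 members, as for 33.9% of all tested genes. Leaving out any 1 of the 6 EpiSC libraries ended that call, with values from 0.99 to 1.18 and edgeR adjusted p from 0.0594 to 0.153. It also ended with passage as a covariate (0.82, edgeR adjusted p = 0.13), and the passages were 5, 8 and 12 in AFX against 13, 14 and 15 in AF. Pmaip1 was at 5.08 (SE 1.41, edgeR adjusted p = 0.0503), a value set by the 69 counts of AFX passage 5, since without that library it was 2.38 (edgeR adjusted p = 0.514) and without AFX passage 12 it was 5.65 (edgeR adjusted p = 0.0135). When only the EpiSC libraries were fitted, 3 members were called, namely Bbc3, Bcl2l11 at 0.48 (edgeR adjusted p = 0.0316) and Bax at 0.57 (edgeR adjusted p = 0.00906).

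The 2 FS lines were compared as the only lines that share a medium. They differed in neuroectoderm markers, of which 2 of 3 were called lower in 5ar1, with Sox1 at 1.18 ± 0.129 CPM in 5ar1 and 22.9 ± 4.44 in 5ar3 (SD, n = 3 each). Of the 7 streak and endoderm markers 1 was called, Foxa2 at 0.139 ± 0.0661 CPM in 5ar1 and 2.88 ± 0.977 in 5ar3 (SD, n = 3 each), and the part of these markers in the members' values was not tested. edgeR called 0 of 10 members between 5ar1 and 5ar3, with 2 at an unadjusted p under 0.05 and 1 called by DESeq2, where edgeR called 3.88% of all tested genes. The gene called by DESeq2 was Bid, at 17.9, 27.4 and 26.8 CPM in 5ar1 (passages 10, 12 and 14) and 10.5, 16.3 and 15.6 CPM in 5ar3 (passages 4, 5 and 12). All 5ar1 libraries were above all 5ar3 libraries. Over all tested genes, 18.7% had libraries of the lines that did not overlap, in either direction. Its log2 fold change was 0.77 (SE 0.22, edgeR adjusted p = 0.0628), which became 0.92 without 5ar1 passage 10 (edgeR adjusted p = 0.0203). The other gene with an unadjusted p under 0.05 was Bcl2l11, at 0.42 (SE 0.20, edgeR adjusted p = 0.277).

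Within FS the earliest passage of each line stood apart for Bcl2 and Bbc3. Bcl2 was at 10.97 CPM in 5ar1 passage 10 and 11.2 in 5ar3 passage 4, and between 3.76 and 7.50 CPM in the other 4 FS libraries. Bbc3 was at 26.8 and 31.4 CPM in the same libraries, and between 13.9 and 16.5 CPM in the others. Bid and Bad were lowest within their line in both. This was seen after the values were known, and the passages of the lines differ, so no test was run.

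The wider family was read from a list of 15 further genes, of which 13 were in the table and 10 were tested. Against ES, 7 were called higher and 1 lower in FS, 6 higher and 1 lower in AFX, and 4 higher and 2 lower in AF. Over all tested genes, 32.9% were called higher and 29.9% lower in FS, 28.5% and 26.2% in AFX, and 29.7% and 27.0% in AF. The median log2 fold change of the 10 was 1.12 in FS, 1.02 in AFX and 0.47 in AF, against 0.04, 0.01 and 0.01 over all tested genes. Bnip3, a mitophagy receptor induced by hypoxia, rose from 8.75 ± 3.56 CPM in ES (SD, n = 4) to 169 ± 33.2 in FS (SD, n = 6), or by 4.28 on the log2 scale (SE 0.26, edgeR adjusted p = 2.50e-10). Its relative Bnip3l rose from 44.7 ± 2.83 to 124 ± 10.1 CPM, or by 1.47 (SE 0.11, edgeR adjusted p = 2.56e-09). Bok, an effector-like gene, rose by 1.75 in FS (SE 0.27, edgeR adjusted p = 2.73e-05).

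The 3 further BH3-only genes Hrk, Bik and Bmf all rose from ES to FS. Hrk had 1.14 ± 0.543 CPM in ES (SD, n = 4), 6.68 ± 2.79 in FS (SD, n = 6), 2.89 ± 1.02 in AFX and 1.24 ± 0.211 in AF (SD, n = 3 each). Its log2 fold change was 2.58 against ES (SE 0.39, edgeR adjusted p = 1.80e-05) and 2.43 against AF (SE 0.42, edgeR adjusted p = 7.13e-04). Bik, with only 0 to 16 counts per ES library and 30 to 86 per FS library, rose by 1.83 (SE 0.61, edgeR adjusted p = 0.0151), and Bmf rose by 0.77 (SE 0.25, edgeR adjusted p = 0.0129). Bcl2l14 was the 1 gene of the list called lower in FS. It fell from 17.95 ± 1.74 CPM in ES (SD, n = 4) to 0.398 ± 0.420 in FS (SD, n = 6), by 5.43 on the log2 scale (SE 0.56, edgeR adjusted p = 2.25e-07). Bcl2l2, the other pro-survival gene of the list that was tested, was at 15.4 ± 6.27 CPM in ES and 19.2 ± 5.66 in FS and was not called (0.32). A wider balance per kilobase added the pro-survival genes of the list and Hrk, Bik, Bmf and Bok. Bcl2l12, Bcl2l13, Bcl2l14, Bcl2l15, Bnip3 and Bnip3l were left out of it. It was -0.15 ± 0.15 in ES, -0.66 ± 0.13 in FS, -0.47 ± 0.14 in AFX and -0.16 ± 0.06 in AF.

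**Figure D5:**
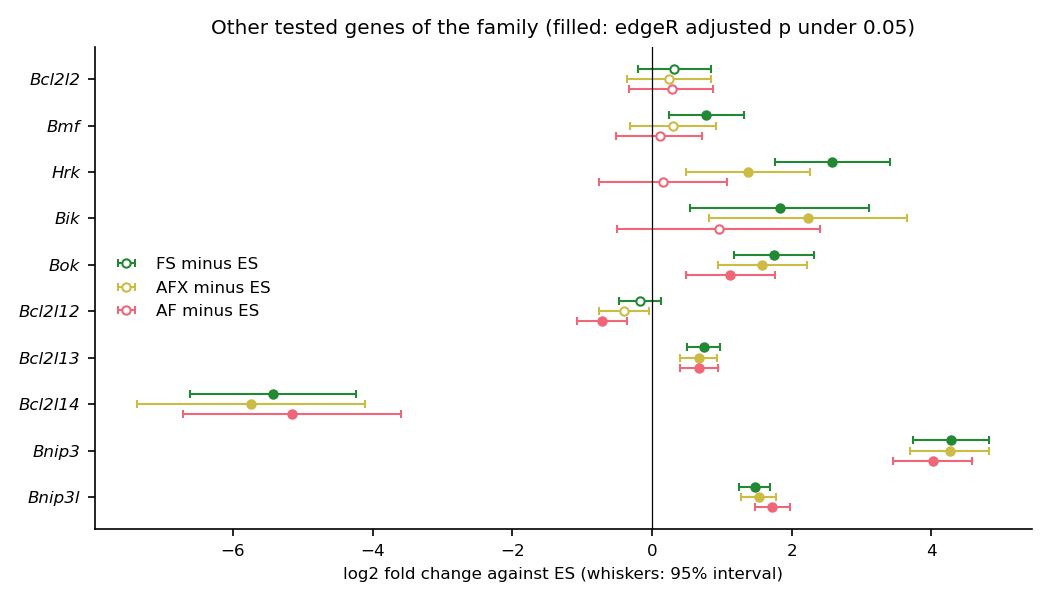
Log2 fold change against ES (horizontal axis) of the 10 tested genes of the wider family in FS, AFX and AF, with the 95% interval as whiskers and filled points for an edgeR adjusted p under 0.05. Bnip3, Bnip3l, Bok and Bcl2l13 are filled to the right of 0 and Bcl2l14 to the left in each group, whereas Hrk and Bik are filled for FS and AFX only, and the test between FS and AF themselves called Hrk.

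Downstream of the mitochondrion, 6 of 13 apoptosome and caspase genes were called between FS and ES, 3 higher and 3 lower, with a median of 0.11. Over all tested genes 62.8% were called, 32.9% higher and 29.9% lower, which is the background for this list and for the lists that follow. Casp6 rose by 1.89 (SE 0.28, edgeR adjusted p = 1.37e-05). Casp9, which the apoptosome activates, fell by 0.81 (SE 0.11, edgeR adjusted p = 5.04e-06), and Aifm1 by 1.08 (SE 0.11, edgeR adjusted p = 3.02e-07). Apaf1, at 81.8 ± 12.3 CPM in ES and 90.8 ± 20.9 in FS, was not called. Of the 6 IAP genes, whose products include caspase inhibitors, 4 were called lower in FS, with a median of -0.42 over the list, among them Birc3 at -1.36 (SE 0.26, edgeR adjusted p = 2.09e-04). Xiap, at -0.33 (SE 0.12, edgeR adjusted p = 0.0193), stood at 0.03 with total counts only (edgeR adjusted p = 0.888).

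Of 8 death receptor genes, 7 were called between FS and ES (62.8% of all genes), 4 higher and 3 lower, with a median of 0.15. Casp8, the initiator caspase that cleaves BID, rose from 2.71 ± 1.34 CPM in ES (SD, n = 4) to 10.97 ± 4.28 in FS (SD, n = 6), by 2.03 (SE 0.33, edgeR adjusted p = 4.79e-05). Cflar, which encodes the caspase-8 inhibitor FLIP, rose by 1.91 (SE 0.16, edgeR adjusted p = 1.49e-08). Bid was lower in FS than in ES, whereas Casp8 and Cflar were higher in FS, and no link among these genes was tested. Between the FS lines the means of all of them were higher in 5ar1, and none was called. Casp8 was at 14.5 ± 2.58 CPM in 5ar1 and 7.43 ± 1.195 in 5ar3, and Bid at 24.0 ± 5.35 and 14.1 ± 3.20 (SD, n = 3 each). The adaptor Tradd fell by 3.14 (SE 0.34, edgeR adjusted p = 3.53e-07).

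Among genes upstream of the members, 4 of 5 genes of p53 and its regulators fell from ES to FS, as did 29.9% of all genes, with a median of -0.89. Trp53 had 233 ± 45.9 CPM in ES (SD, n = 4), 147 ± 42.8 in FS (SD, n = 6), 157 ± 17.2 in AFX and 68.9 ± 14.5 in AF (SD, n = 3 each). It was higher in FS than in AF by 1.09 (SE 0.24, edgeR adjusted p = 0.00464) and higher in AFX than in AF by 1.19 (SE 0.27, edgeR adjusted p = 0.0167), the comparisons in which Bbc3 was called higher as well. Against ES the directions differed: mean Trp53 was lower in FS and AFX, where Bbc3 was called higher. In AF, where mean Trp53 was lowest, Bbc3 was at 10.97 ± 1.44 CPM (SD, n = 3), against 10.6 ± 2.02 in ES (SD, n = 4). The part of Trp53 in the Bbc3 values was not tested. Trp53 lies on chromosome 11, whose genes had a median log2 fold change of -0.39 between FS and AF, against 0.06 for the others. Between AFX and AF that median was -0.42, against 0.02 for the others. Both medians had the opposite sign to the Trp53 difference, and the part of the chromosome in that difference was not tested. Of 16 other p53 targets, 4 were called higher and 4 lower between FS and ES (32.9% and 29.9% of all genes), with Cdkn1a (p21) at -1.81 (SE 0.25, edgeR adjusted p = 8.60e-06), Tigar at -2.39 (SE 0.11, edgeR adjusted p = 1.17e-11) and Perp at 1.63 (SE 0.24, edgeR adjusted p = 1.59e-05).

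Of the 5 Foxo and E2f genes, some of which can activate Bcl2l11 or Bbc3, 3 were called higher and 1 lower between FS and ES (32.9% and 29.9% of all genes). Foxo1 rose from 10.4 ± 1.52 CPM in ES (SD, n = 4) to 23.0 ± 4.89 in FS (SD, n = 6), by 1.14 (SE 0.16, edgeR adjusted p = 8.23e-06), and Foxo3 was not called. Of 7 integrated stress response genes 2 were called higher and 2 lower, against the same background, with Atf3 at 3.59 (SE 0.35, edgeR adjusted p = 1.27e-07) and Chac1 at 2.14 (SE 0.40, edgeR adjusted p = 1.82e-04). Ddit3 (CHOP) was not called. Of the 8 tested genes of protein partners and turnover, 3 were called lower in FS, with a median of -0.20 over the list. Among them Usp9x, whose product removes ubiquitin from MCL1, fell by 1.10 (SE 0.11, edgeR adjusted p = 2.33e-07), beside the lower Mcl1 transcript.

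The genes whose log2 CPM followed a member most closely over the 16 libraries were named by Pearson r, as a description, since the libraries of a group share medium and line and the ES libraries stand apart. Bcl2 was followed by Amotl1 (r = 0.980 over 16 libraries and 0.980 over the 12 outside ES), Gnas and Morc4. Bcl2l11 was followed by Pim2 (0.989 and 0.762), Col7a1 and Dnmt3a. Bid was followed by Nqo1 (0.977 and 0.843), Tamm41 and Acy1, and Mcl1 by Mpp6 (0.967 and 0.905), Mir293 and Anxa7. Bax was followed by Gm6430 (0.972 and 0.940), Hnrnpf and Naa38. Bad was followed by Xrcc5 (0.932 and 0.845), Pmaip1 by Zwilch (0.922 and 0.807), Bak1 by Atp5d (0.899 and 0.943), Bbc3 by Pecr (0.890 and 0.850) and Bcl2l1 by Tbcd (0.883 and 0.784).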

How the data were processed

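Bulk RNA was measured in 16 libraries of mouse pluripotent stem cells. Per the labels' protocols, RNA was extracted with Trizol and a PureLink column, and libraries were made with a directional NEXTflex kit. Per the submitters' processing notes, Trim Galore, TopHat2 2.1.0, featureCounts 1.5.0 and the build mm10 were used. Their order, the strand setting and the annotation release are not given in the sources used here, so overlapping genes are uncertain. The authors deposited raw counts per gene. In the table, 6 further value columns matched no sample and were not used.

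Samples were grouped by culture condition. Nothing in the labels says that libraries came from separate derivations beyond line and passage, so p-values measure the spread between these samples. Libraries of the same line differed by more than sampling noise, with chi-square over its degrees of freedom of at least 8.40. Intervals on counts cover counting error only.

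The deposited counts went into edgeR 4.0.16 (R 4.3.3): filterByExpr by group, TMM scaling, and a robust quasi-likelihood fit of all 16 libraries with a mean per group, or per line for 5ar1 against 5ar3. Benjamini-Hochberg adjustment ran over all 18555 tested genes at a threshold of 0.05. Exon lengths came from GENCODE mouse release M21 (GRCm38), in which 33860 of the 34042 gene identifiers were found, and the sequences before transcription starts from RefSeq (GRCm38.p6). Lists are described by counts and medians, with no set test. All members are described. From the lists, the genes to name were those called with a log2 fold change past 1 in size and those a sentence on a member needs. Which of these are written out was chosen after their values were seen, and Casp9, Apaf1, Xiap, Bmf, Bcl2l2, Foxo3 and Ddit3 lie outside that rule. For each member, the 3 genes of highest Pearson r (log2 CPM, prior count 2) among genes with a mean of at least 10 CPM were taken. The members and lists were chosen with earlier results of these data known.

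Alternatives were DESeq2 1.42.0 size factors and its Wald test, total counts only, no low-count filter, passage as a covariate, only the groups compared, a mean per line, single FS lines, each library left out, and other sums for the balance. The procedure was also run on simulated counts, drawn independently for each library and with a small share of genes changed, in FS only. Here most genes were called against ES and replicates were passages of a line, so that run is no check of these calls.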

Additional observations from a re-analysis of the deposited data

Results flagged for a closer look

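Bax in the FS library 5ar1 passage 14 was at 84.6 CPM and the next FS library at 60.4 CPM, a gap larger than Dixon's 95% critical value allows for 6 libraries. The tests covered the 10 members and the balance in FS and ES, 22 groups in all, and chance flags about 1 in 20 groups. Without this library Bax was still called lower in FS than in ES, as in every alternative.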

How the results depend on the processing

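No paired analysis was possible because replicate numbers were given in accession order and the labels pair no libraries. All results rest on few libraries per line, and low counts of Bcl2 in ES and of Pmaip1 outside ES limit the size of their folds. The calls of Bcl2, Bcl2l11 and Bid against ES held in FS, AFX and AF under every alternative. Bcl2 passed the low-count filter only through its counts outside ES. With total counts only, Bcl2l1 (0.02), Bak1 (0.04) and Xiap (0.03) changed sign between FS and ES, and 4 members were called between AFX and ES, 1 between FS and AFX and 1 between FS and AF. With only the groups compared in the fit, 0 members and 557 genes were called between FS and AFX (all 16 libraries gave 3 and 927, with 4 members at an unadjusted p under 0.05 and 3 called by DESeq2), 1 member between FS and AF, 3 members and 2276 genes between AFX and AF (against 1 and 791), and 179 genes between the FS lines (against 720). With a mean per line, 1429 genes were called between FS and AFX, and 1227 genes and 2 members between AFX and AF. The line 5ar1 alone gave 0 members between FS and AFX, and 5ar3 alone gave 1690 genes. DESeq2's test called 1639 genes between FS and AFX, 1383 genes and 3 members between AFX and AF, and 1292 genes and 1 member between the FS lines. Passage as a covariate left 1 member between FS and AF and 431 genes between the FS lines, and no low-count filter gave 1 member between the lines. With 1 library left out, the count ran from 380 genes to 1221 and from 0 members to 3 between FS and AFX, from 1799 genes to 3464 and from 1 member to 3 between FS and AF, from 351 genes to 924 and from 0 members to 1 between AFX and AF, and from 289 genes to 1567 and from 0 members to 1 between the FS lines. The libraries whose loss ended a member's call are named in the report. Among the single genes' values with 1 library left out, 223 of the calls held and 33 were lost, and 5 values that had not been called became called. The balance in the order ES, FS, AFX and AF was 0.54, 0.04, 0.15 and 0.44 on CPM, -3.57, -3.16, -3.53 and -2.85 without Mcl1, and 0.93, 0.34, 0.40 and 0.57 without Bax. With the longest transcript as the length, an alternative chosen after seeing the data, it was -0.47, -0.79, -0.66 and -0.30. On this ratio of sums FS was below ES in each of these settings except without Mcl1, while the second balance, which weights genes alike, had FS above ES with all 10 members. Where a value moved, the cause was not tested.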
